A study of Mus musculus with 24 samples.

Results

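The expression of 42 cell cycle and DNA replication genes was examined across 24 RNA sequencing libraries of organ of Corti (OC) explants, the sensory strip of the cochlea that holds hair cells and supporting cells. The members were taken by gene symbol, matched to the Entrez gene identifiers of the deposited count table, and make up 42 of its 24454 genes. All 42 were among the 16317 genes that passed the filter on low counts and were tested, and 38 of them had at least 10 counts in every library. Counts of single members in single libraries ranged from 4 to 2029.

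A cell that divides first loads the MCM helicase onto DNA (licensing), copies its DNA in S phase with the sliding clamp PCNA and a supply of deoxynucleotides, and then enters mitosis under CDK1 bound to cyclins A and B. Transcripts of the S phase genes are largely driven by E2F factors at the G1 to S transition, whereas those of mitotic genes peak later, in G2 and M phase. In the mammalian OC, hair cells and supporting cells stop dividing before birth, while other cells of a cochlear explant, such as fibroblasts, Schwann cells, endothelial cells and macrophages, can still divide.

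The explants came from 5-day-old C57BL/6N mice of both sexes and were kept for 24 h in medium with 10% fetal calf serum, an N1 supplement and 30 U/mL penicillin before treatment. Treatment then lasted 6 or 24 h. CTRL explants stayed in medium alone, GM explants received gentamicin, an aminoglycoside toxic to hair cells, at 50 μM, PIO explants received pioglitazone, which activates PPAR-γ, at 10 μM, and PIO+GM explants received both compounds at these doses. This gave 8 groups, with 3 libraries of 6 pooled explants per group and totals between 7211357 and 15548856 counts per library. The labels do not say whether the 3 libraries of a group came from separate litters, so p-values measure the spread between these libraries.

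The tissue label was checked against marker lists. All 12 hair cell and all 10 supporting cell markers were detected, with summed levels of 283 to 726 and of 3689 to 11159 CPM, the counts scaled to library size, per library. All 9 fibroblast, 9 Schwann cell, 10 macrophage, 7 neuron, 6 endothelial cell and 4 red blood cell markers were detected as well. In such bulk samples, fewer cells of a type and less RNA per cell cannot be told apart.

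The 4 libraries numbered 2 at 24 h, which belong to 4 different treatments, stood apart in the level of the members. Their mean log2 CPM over the 42 members was 3.72 to 3.89, against 2.89 to 3.33 in the other 8 libraries at 24 h and 2.54 to 3.07 in the 12 libraries at 6 h. In all 4 treatments, 33 of the 42 members had their highest 24 h value in the library numbered 2. The share of all genes with this order was not counted. Over all tested genes, the deviations of these 4 libraries from their group means correlated by 0.471 to 0.723, so the shift was not limited to the members. The summed supporting cell markers were lower in these 4 libraries, at 3689 to 5131 CPM against 7963 to 11159 CPM in the other 8, whereas the macrophage markers were higher, at 159 to 234 CPM against 74.7 to 126 CPM, and so were the endothelial markers, at 246 to 377 CPM against 120 to 210 CPM. The hair cell markers were at 283 to 491 CPM in these 4 libraries and at 423 to 726 CPM in the other 8. Summed transcripts of olfactory and vomeronasal receptor genes, families named for the sensory neurons of the nose, were at 38.5, 38.8, 39.4 and 89.5 CPM in these 4 libraries, at 48.3 to 160 CPM in the other 8 and at 57.4 to 268 CPM at 6 h. The part of these genes and cell types in the level of the members was not tested. The counts of members called over time, by role and by treatment, are therefore given with and without these 4 libraries.

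The members differed in abundance. Compared per length of transcript, as RPKM (CPM per kilobase, mean of 24 libraries), Pcna was the most abundant at 26.4, followed by the helicase subunits Mcm7 at 11.5 and Mcm6 at 10.5, by Rrm1, the large subunit of ribonucleotide reductase, at 9.01, and by Mcm4 at 7.38. The most abundant mitotic members were Top2a, which encodes topoisomerase IIα, at 6.92 and Mki67, which encodes the proliferation antigen Ki-67, at 6.02. The median member was at 2.62, and Cdc25c, the phosphatase that activates CDK1, was the lowest at 0.791. The 5 most abundant members all serve DNA replication. Other members that serve it, such as Cdc6 (1.08), the licensing factor, and Tk1 (1.2), the thymidine salvage kinase, stood near the bottom of the order.

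**Figure D1:**
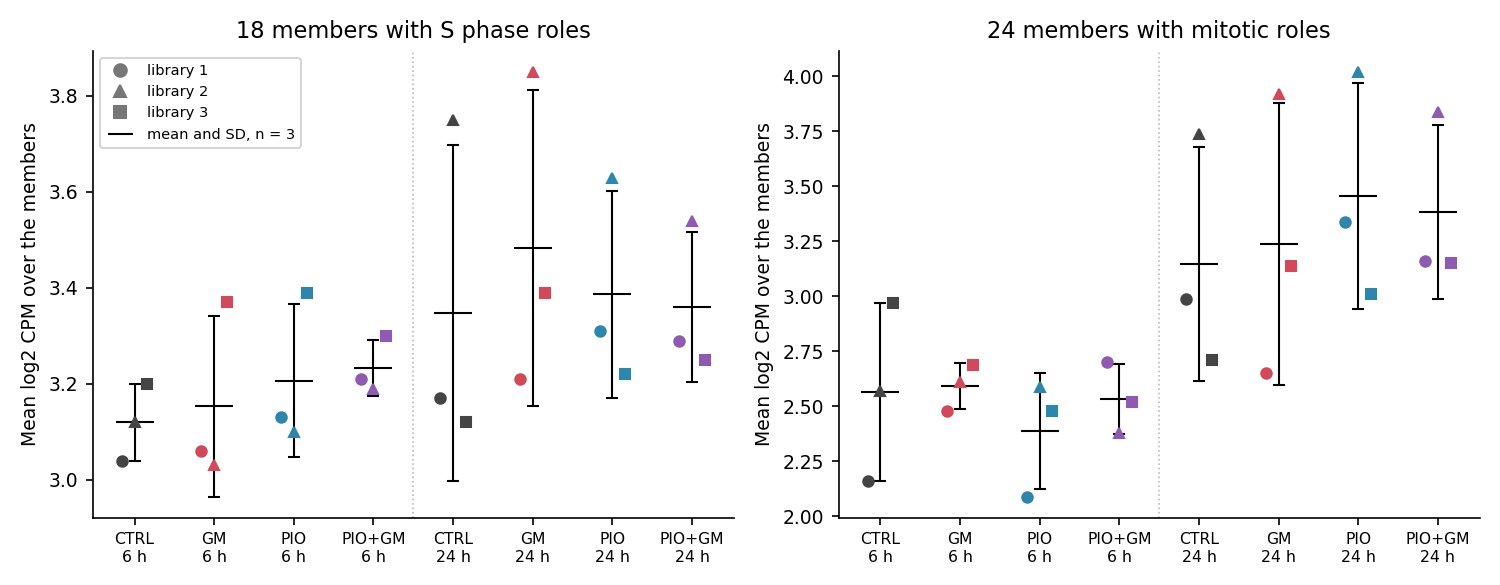
Mean log2 CPM over the 18 members with S phase roles (left) and the 24 with mitotic roles (right) in each library, with the 3 libraries of a group as symbols by number and black bars for the group mean and SD. The mitotic members ranged from 2.09 to 2.97 at 6 h and from 2.65 to 4.02 at 24 h, with the libraries numbered 2 on top in all 4 treatments at 24 h.

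From 6 to 24 h of treatment, 21 of the 24 members with mitotic roles rose, as against 7 of the 18 with S phase roles, of which 2 fell. With the change from 6 to 24 h averaged over the 4 treatments, 28 of the 42 members (66.7%) rose and 2 (4.8%) fell past an adjusted p of 0.05 (edgeR's quasi-likelihood test with Benjamini-Hochberg adjustment over all tested genes). Over all 16317 genes, 31.9% were called higher and 30.7% lower in this comparison. The members' median log2 fold change was 0.72, and that of all genes 0.02. Without the 4 libraries numbered 2 at 24 h, 23 members were higher and 5 lower, with a median of 0.41, against 27.5% and 28.5% of all genes. Of the mitotic members, 17 of 24 were then higher and 1 lower, with a median of 0.56 in place of 0.95, and of the S phase members 6 of 18 (33.3%) were higher and 4 (22.2%) lower, with a median of -0.09 in place of 0.07. All 23 were among the 28, and the 2 lower members were among the 5.

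The count also moved when the log2 level of the olfactory and vomeronasal receptor genes entered the fit as a covariate. Then 17 members (40.5%, against 27.6% of all genes) were higher and 4 (9.5%, against 26.1%) lower, with a median of 0.44. Of the mitotic members 13 of 24 were higher, with a median of 0.59, and of the S phase members 4 of 18 were higher and 4 lower, with a median of -0.08. Of the 11 members that lost the call, Mki67 (adjusted p = 0.0794), Plk1 (0.0711), Aurkb (0.0669), Cdc20 (0.102), Uhrf1 (0.0688) and Gins2 (0.0799, all edgeR) had kept it without the libraries numbered 2, and Kif11, Cenpe, Tpx2, Ube2c and Mcm5 lost it in both fits. All 5 mitotic cyclins and partners of CDK1 were called in both.

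All 5 mitotic cyclins and partners of CDK1 rose. Ccnb2, which encodes cyclin B2, ranged from 2.01 to 3.54 CPM (median 2.69) in the 12 libraries at 6 h and from 3.14 to 10.9 CPM (median 6.36) in the 12 at 24 h. Its log2 fold change was 1.24 ± 0.19 (SE, adjusted p = 1.56e-05, edgeR). Ccna2, the cyclin that acts in both S phase and mitosis, went from 4.45 to 9.26 CPM (median 6.58) up to 7.25 to 22 CPM (median 12.9), a log2 fold change of 1.14 ± 0.2. Both distributions shifted upward but overlapped at their edges. Ccnb1, for cyclin B1, rose by 1.12 ± 0.2 on the log2 scale, Cdc25c by 1.03 ± 0.25 and Cdk1 itself by 0.95 ± 0.19. All 5 were still called without the libraries numbered 2 at 24 h, with smaller changes between 0.59 (Cdk1) and 0.91 (Ccnb2).

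Of the 6 mitotic kinases and checkpoint genes, 5 rose. Bub1b encodes BUBR1, a component of the spindle assembly checkpoint, and ranged from 5.18 to 10 CPM (median 7.46) at 6 h and from 9.92 to 23.2 CPM (median 18) at 24 h. Its log2 fold change was 1.2 ± 0.13 (adjusted p = 2.32e-07, edgeR), and only the lowest 24 h library, a GM library, fell within the range at 6 h. Bub1, its partner in the checkpoint, rose by 1.08 ± 0.2 on the log2 scale, the chromosomal passenger kinase Aurkb by 1.03 ± 0.25, Plk1 by 0.96 ± 0.24 and Aurka, a kinase of the spindle poles, by 0.83 ± 0.18. Birc5, which encodes survivin, did not pass the test at 0.19 ± 0.16. The 5 were still called without the libraries numbered 2 at 24 h, Bub1b at 0.98 ± 0.11, Bub1 at 0.69, Aurkb at 0.62, Plk1 at 0.51 and Aurka at 0.45, and Birc5 was at -0.11 ± 0.14.

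Both partners of the anaphase-promoting complex rose. Cdc20, its activator, ranged from 2.65 to 5.78 CPM (median 4.67) at 6 h and from 3.8 to 11.6 CPM (median 5.99) at 24 h, so that the times overlapped widely, and its log2 fold change was 0.72 ± 0.18. Ube2c, its ubiquitin-conjugating enzyme, had a log2 fold change of 1.07 ± 0.29. Without the libraries numbered 2 at 24 h, Cdc20 passed the test at 0.35 ± 0.13 (adjusted p = 0.0313, edgeR) and Ube2c did not, at 0.57 ± 0.27 (adjusted p = 0.0805, edgeR).

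Of the 11 genes of the spindle, the chromosomes and cytokinesis, 9 rose. Anln, which encodes anillin, a scaffold of the contractile ring, had the smallest p of all members. It ranged from 8.34 to 15.8 CPM (median 10.7) at 6 h and from 16.3 to 23 CPM (median 18.5) at 24 h, a log2 fold change of 0.82 ± 0.08 (adjusted p = 7.65e-08, edgeR). Kif20a, a kinesin of the central spindle, ranged from 3.88 to 6.71 CPM (median 4.86) and from 7.28 to 15.1 CPM (median 10.2), a change of 1.06 ± 0.15. In these 2 members, and in no other, every library at 24 h lay above every library at 6 h. The share of all genes that separate in this way was not counted. Cenpf, a kinetochore protein, rose by 1.05 ± 0.19, Mki67 by 0.95 ± 0.22 and Top2a by 0.91 ± 0.2 on the log2 scale. Top2a, the most abundant of the list per length, ranged from 15.2 to 38.6 CPM at 6 h and from 23.2 to 77.7 CPM at 24 h, with the 4 highest values in the libraries numbered 2. Nusap1 (0.85), Kif11 (0.77), Cenpe (0.67) and Tpx2 (0.65) rose as well, while Prc1 at 0.13 ± 0.15 and the cytokinesis kinesin Kif23 at 0.06 ± 0.19 did not pass the test. Without the libraries numbered 2 at 24 h, 6 of the 11 were higher and 1 lower, with a median of 0.43 in place of 0.82. Anln at 0.71 ± 0.09 and Kif20a at 0.77 ± 0.12 moved least, while Cenpf was at 0.62, Nusap1 at 0.54, Top2a at 0.49 and Mki67 at 0.43. Kif11 (0.37, adjusted p = 0.0652, edgeR), Cenpe (0.31, adjusted p = 0.0553, edgeR) and Tpx2 (0.31, adjusted p = 0.0842, edgeR) then lost the call, and Kif23 fell by 0.36 ± 0.14 (log2, adjusted p = 0.044, edgeR). Kif23 was at 11.6 to 13.6 CPM in the 4 libraries numbered 2 at 24 h, at 4.63 to 7.9 CPM in the other 8 and at 5.87 to 10.8 CPM at 6 h.

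**Figure D2:**
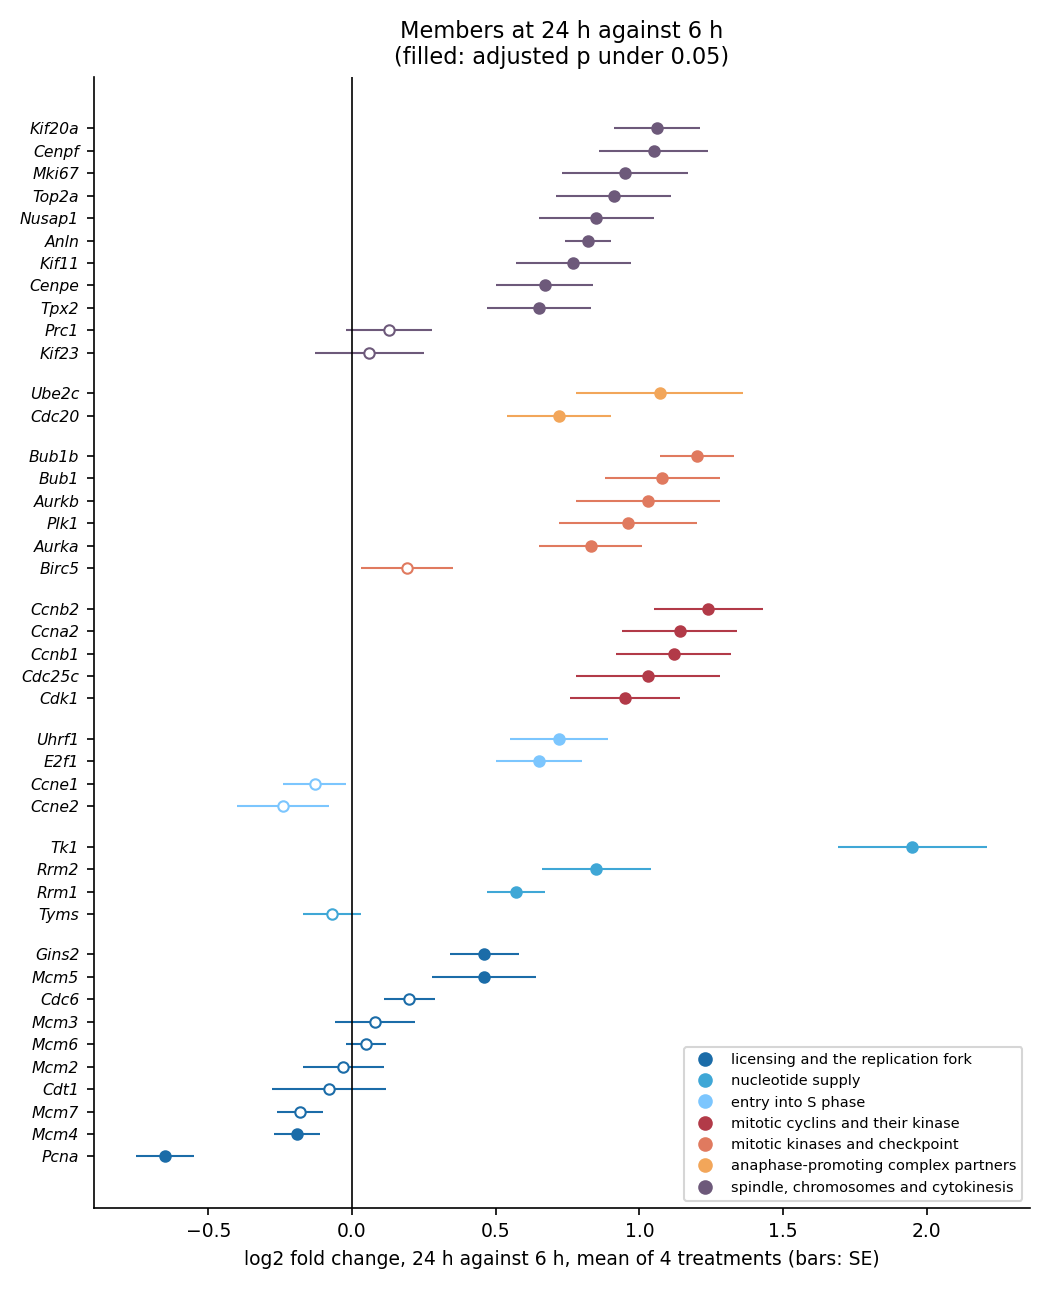
log2 fold change (x axis) of each of the 42 members (y axis, grouped by role) at 24 h against 6 h, averaged over the 4 treatments, with SE bars and filled points for an adjusted p under 0.05. The 21 filled mitotic members lie between 0.65 and 1.24, whereas Pcna at -0.65 and Mcm4 at -0.19 are the filled points to the left of 0.

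The genes of licensing and of the replication fork did not move as a group. Of 10, 2 rose, 2 fell and 6 did not pass the test, with a median log2 fold change of 0.01. Mcm5 and Gins2, subunits of the helicase complex that unwinds DNA at the fork, rose by 0.46 ± 0.18 and 0.46 ± 0.12 on the log2 scale. Mcm4 fell by 0.19 ± 0.08 (log2), and Mcm2 (-0.03), Mcm3 (0.08), Mcm6 (0.05) and Mcm7 (-0.18), the other subunits of the hexamer, lay near 0 without passing the test. Mcm6, the MCM subunit with the most reads, ranged from 38.4 to 55.3 CPM at 6 h and from 37.9 to 63 CPM at 24 h, a full overlap. Neither Cdc6 at 0.2 ± 0.09 nor the loading factor Cdt1 at -0.08 ± 0.2 passed the test. Without the libraries numbered 2 at 24 h, 1 of the 10 was higher and 3 lower, with a median of -0.19. Mcm5 no longer passed at 0.16 ± 0.15, whereas Mcm7 then did at -0.31 ± 0.08. With all libraries, Mcm7 was also called lower by DESeq2, with library number as a block, with the GC trend removed and with the receptor gene covariate. Mcm4 lost its call with the GC trend removed, so the split between Mcm4 and Mcm7 depended on the fit.

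Pcna moved against the mitotic members. The clamp gene ranged from 27.9 to 64.6 CPM (median 39.5) at 6 h and from 20.2 to 29.6 CPM (median 25.5) at 24 h, a log2 fold change of -0.65 ± 0.1 (adjusted p = 1.24e-05, edgeR). Within each treatment, all 3 libraries at 24 h lay below all 3 at 6 h. Without the libraries numbered 2 at 24 h its change was -0.68 ± 0.12 (adjusted p = 0.000215, edgeR), so that Pcna did not follow the rise of the other members in those libraries.

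Nucleotide supply was mixed. Tk1 had the largest fold change of the members, from 0.424 to 1.29 CPM (median 0.645) at 6 h to between 1 and 5.34 CPM (median 2.23) at 24 h, a log2 fold change of 1.95 ± 0.26 (adjusted p = 3.25e-06, edgeR), on low counts. Rrm1 ranged from 22.7 to 40.4 CPM (median 26.5) and from 36.4 to 52.4 CPM (median 40.4), a change of 0.57 ± 0.1, and Rrm2, the small subunit of the same enzyme, rose by 0.85 ± 0.19. Tyms, the thymidylate synthase of the de novo route to the same nucleotide that Tk1 makes by salvage, did not pass the test at -0.07 ± 0.1. Tk1 (1.44 ± 0.2), Rrm1 (0.42 ± 0.09) and Rrm2 (0.45 ± 0.14) were still called without the libraries numbered 2 at 24 h.

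Of the 4 genes of entry into S phase, E2f1, the transcription factor of this transition, rose by 0.65 ± 0.15 on the log2 scale. Uhrf1, which maintains DNA methylation behind the fork, ranged from 4.45 to 13 CPM (median 8.45) at 6 h and from 9.08 to 23.2 CPM (median 12.5) at 24 h and rose by 0.72 ± 0.17. The cyclins E that open S phase, Ccne1 at -0.13 ± 0.11 and Ccne2 at -0.24 ± 0.16, did not pass the test. Without the libraries numbered 2 at 24 h, E2f1 (0.49 ± 0.16) and Uhrf1 (0.4 ± 0.15) were still called and Ccne1 fell by 0.29 ± 0.11 (log2, adjusted p = 0.0376, edgeR).

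**Figure D3:**
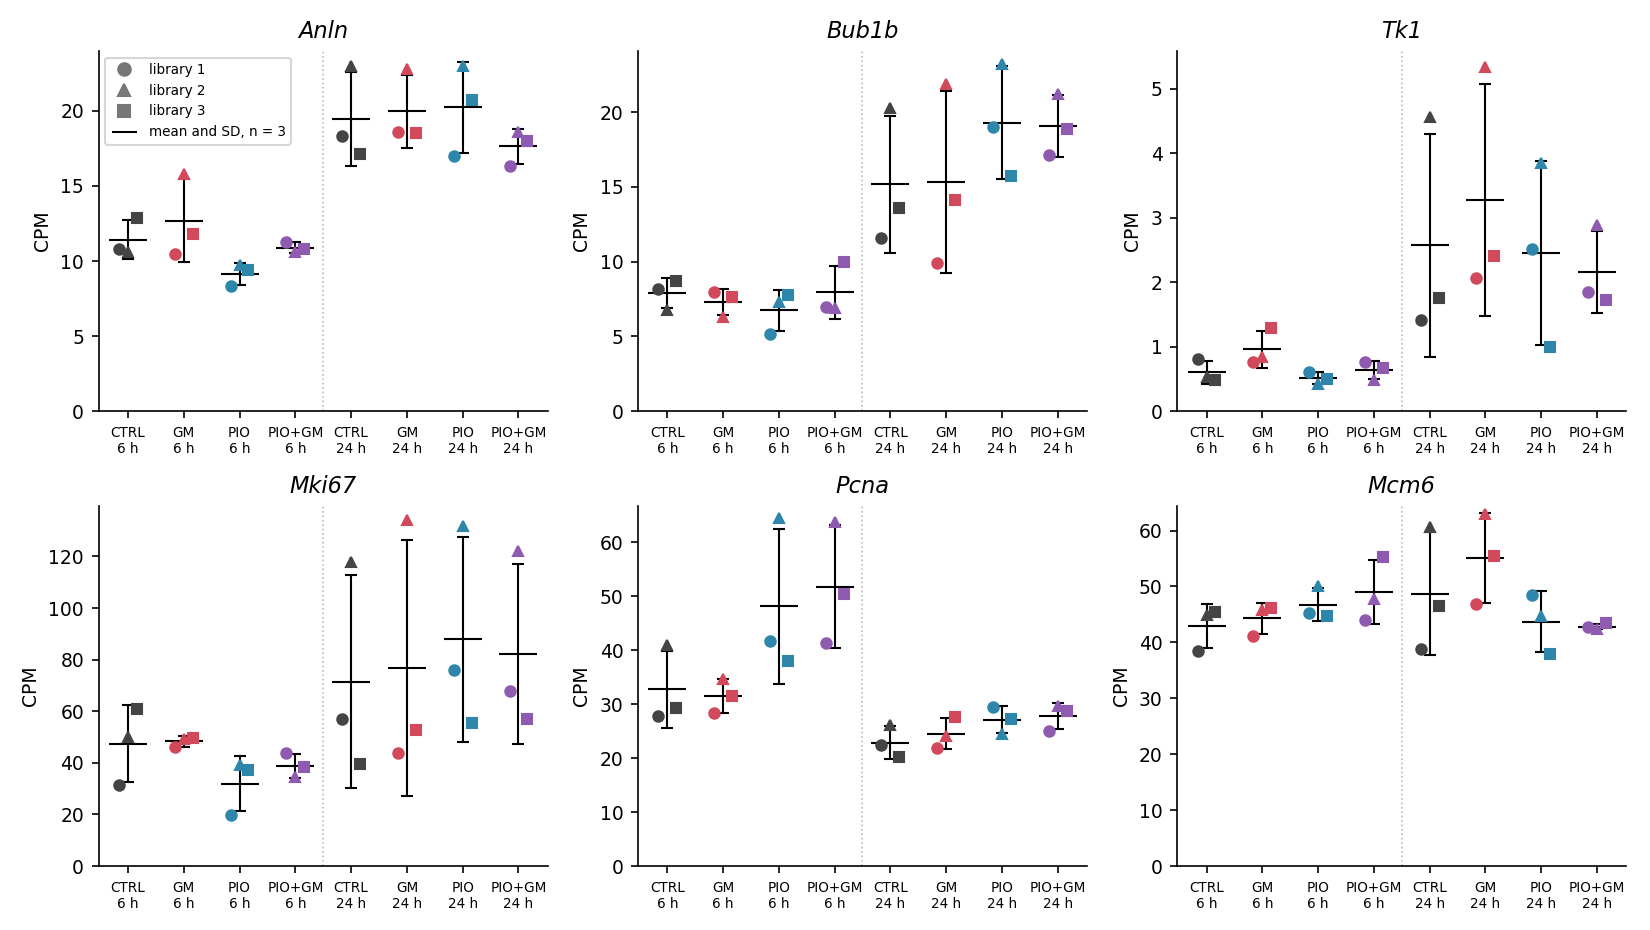
CPM (y axis) of Anln, Bub1b, Tk1, Mki67, Pcna and Mcm6 in each library of the 8 groups (x axis), with symbols by library number and black bars for the mean and SD of 3 libraries. Anln at 24 h (16.3 to 23 CPM) lies above 6 h (8.34 to 15.8 CPM) in every library, Pcna is highest in the PIO and PIO+GM groups at 6 h, and Mcm6 overlaps throughout.

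**Figure D4:**
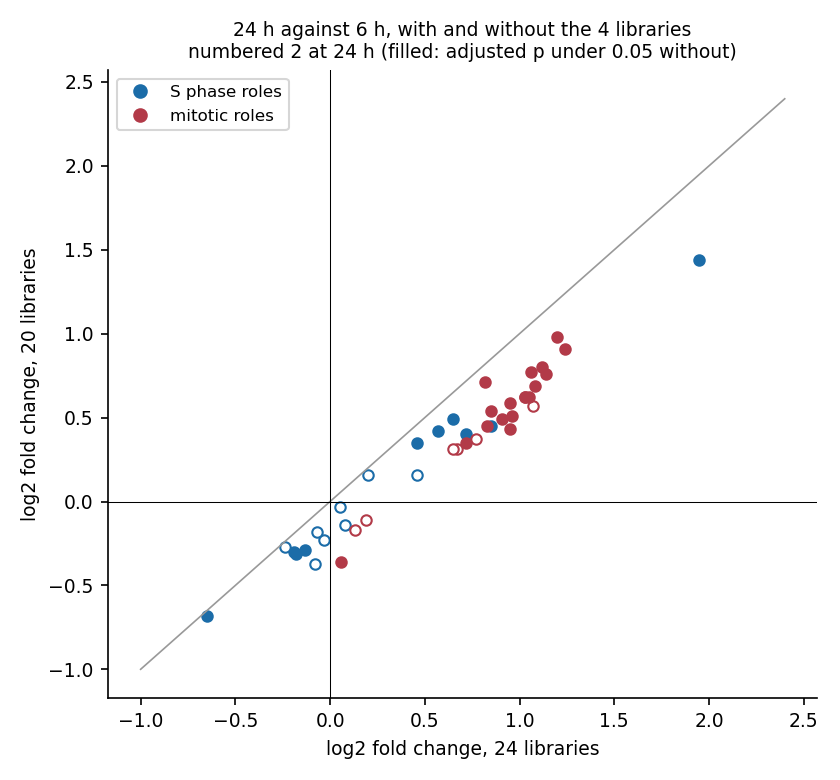
log2 fold change at 24 h against 6 h, averaged over the treatments, of each member with all 24 libraries (x axis) and with 20 libraries after leaving out those numbered 2 at 24 h (y axis), filled where the adjusted p is under 0.05 without them, with the diagonal as a grey line. All 42 points lie below the diagonal, and the median moves from 0.72 to 0.41.

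Sequence upstream of the members was read from RefSeq windows (GRCm38.p6) of the 250 bases before each gene start, which 34 of the 42 members matched. A CCAAT box (CCAAT, either strand) was found in 75.7% of the 37 member windows and in 33.8% of all 32851 windows. A cell cycle genes homology region (TTTGAA, either strand), the element that mitotic genes are known to share, was found in 40% of the 20 windows of mitotic members, in 5.88% of the 17 of S phase members and in 16% of all windows. An E2F element (TTTCCCGC, TTTGGCGC, TTTCGCGC, TTTGCCGC, TTCCCGCC or TTGGCGCC, either strand, several of which overlap in their letters) was found in 10% of the mitotic, 41.2% of the S phase and 3.7% of all windows. These are matches of letters and not sites. The windows of Anln and Bub1b, the 2 members with the smallest p over time, and of Pcna, which moved the other way and was picked for that, are shown 5′ to 3′ with the matches in capitals. They lie at chr9:22389207-22389456 (minus strand), chr2:118597961-118598210 (plus strand) and chr2:132253181-132253430 (minus strand).
Anln: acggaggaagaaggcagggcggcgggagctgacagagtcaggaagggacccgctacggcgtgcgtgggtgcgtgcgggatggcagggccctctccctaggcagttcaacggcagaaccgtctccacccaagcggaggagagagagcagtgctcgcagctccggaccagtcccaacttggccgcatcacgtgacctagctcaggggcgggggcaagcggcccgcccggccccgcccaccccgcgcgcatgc
Bub1b: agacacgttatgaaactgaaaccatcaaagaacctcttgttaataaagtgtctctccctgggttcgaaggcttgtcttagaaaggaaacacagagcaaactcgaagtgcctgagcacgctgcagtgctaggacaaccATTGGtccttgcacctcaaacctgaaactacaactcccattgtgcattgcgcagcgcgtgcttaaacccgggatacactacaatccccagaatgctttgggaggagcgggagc
Pcna: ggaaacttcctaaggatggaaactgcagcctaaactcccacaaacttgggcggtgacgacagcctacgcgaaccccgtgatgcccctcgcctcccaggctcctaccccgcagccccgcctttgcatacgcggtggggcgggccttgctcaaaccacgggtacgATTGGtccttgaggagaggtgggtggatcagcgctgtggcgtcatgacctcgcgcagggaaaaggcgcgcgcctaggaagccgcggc
The capitals mark a CCAAT box on the opposite strand in Bub1b, which starts 113 bases before the gene start, and in Pcna, which starts 87 bases before it. The Anln window held no match to any of the 3 motifs.

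Within single treatments fewer members were called, and outside PIO the share of members called higher lay near that of all genes. In CTRL, 8 members were higher at 24 h (19%, against 14.8% of all genes) and 0 lower (against 13.2%), where 1 member was lower at an unadjusted p under 0.05 and 1, Pcna, by DESeq2. In GM, 8 were higher (19%, against 12.5%) and 0 lower (against 11.7%), where 0 members were lower at an unadjusted p under 0.05 and 0 by DESeq2. In PIO, 17 were higher (40.5%, against 13.2%) and 1 lower (2.4%, against 15.8%), and in PIO+GM 10 were higher (23.8%, against 17.6%) and 3 lower (7.1%, against 17%). The median log2 fold change of the members was 0.58, 0.71, 0.85 and 0.65 in the 4 treatments, and between 0.01 and 0.03 for all genes. Anln, Bub1b, Tk1, Kif20a and Ccnb2 rose in all 4 treatments.

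Without the 4 libraries numbered 2 at 24 h, the shares in CTRL and GM lay below those of all genes. In CTRL, 3 members were then higher (7.1%, against 10.5% of all genes) and 1 lower (2.4%, against 10.1%), with a median log2 fold change of 0.14. In GM, 3 were higher (7.1%, against 8.5%), with a median of 0.35. In PIO, 9 were higher (21.4%, against 7.64%) and 1 lower (2.4%, against 9.52%), with a median of 0.48, and in PIO+GM 7 were higher (16.7%, against 12.3%) and 2 lower (4.8%, against 12.4%), with a median of 0.43. Mitotic members made up 1 of the 3 called higher in CTRL, 2 of 3 in GM, 8 of 9 in PIO and 6 of 7 in PIO+GM. Anln and Tk1 were still called in all 4 treatments.

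With the receptor gene covariate, the share in PIO lay at that of all genes, with 3 members higher (7.1%, against 7.13%) and 2 lower (4.8%, against 8%), with a median of 0.26. The 3 were Anln, Bub1b and Ccnb1, and the 2 were Mcm4 and Pcna. In CTRL and GM, 6 were higher in each (14.3%, against 15.7% and 13%), and in PIO+GM 5 were higher (11.9%, against 15.1%) and 4 lower (9.5%, against 14.6%). The mean receptor level in PIO was 147 ± 59.6 CPM at 6 h and 54.5 ± 18.9 CPM at 24 h (SD, n = 3).

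In CTRL, Anln went from 10.8, 10.6 and 12.9 CPM at 6 h to 18.3, 23 and 17.1 CPM at 24 h, with no overlap and a log2 fold change of 0.77 ± 0.16 (adjusted p = 0.00182, edgeR). Rrm1 went from 25.8, 24.6 and 26.8 CPM to 42.3, 52.4 and 36.4 CPM, a change of 0.76 ± 0.19. Tk1 went from 0.804, 0.529 and 0.479 CPM to 1.41, 4.56 and 1.75 CPM, a change of 2.09 ± 0.53, with the library numbered 2 far above the other two. Bub1b (0.94), Gins2 (0.75), Kif20a (0.92), Bub1 (1.14) and Ccnb2 (1.05) completed the list in CTRL. In GM, the called members were Bub1b (log2 fold change 1.07), Anln (0.65), Tk1 (1.74), Aurka (1.19), Rrm1 (0.64), Kif20a (0.95), Ccnb2 (1.17) and Cdc6 (0.52).

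In PIO, where the most members were called, all 5 mitotic cyclins and partners, 4 of 6 kinases and checkpoint genes and 6 of 11 spindle genes rose. Without the libraries numbered 2 at 24 h, these counts were 2 of 5, 1 of 6 and 4 of 11. With the receptor gene covariate they were 1 of 5, 1 of 6 and 1 of 11. The values that follow are from all libraries without the covariate. Bub1b went from 5.18, 7.31 and 7.74 CPM to 19, 23.2 and 15.7 CPM, a log2 fold change of 1.51 ± 0.27, and Anln from 8.34, 9.74 and 9.41 CPM to 17, 23 and 20.7 CPM, a change of 1.14 ± 0.17 (adjusted p = 0.000114, edgeR). Ccnb1 went from 1.23, 2.54 and 1.74 CPM to 5.33, 10.1 and 3.58 CPM, a change of 1.8 ± 0.4. In these 3 members the times did not overlap. Tk1 (2.23), Kif20a (1.2), Cenpf (1.53), Ccnb2 (1.44), Ccna2 (1.48) and Cdc20 (1.24) rose too, and Pcna fell by 0.83 ± 0.2 (log2). In PIO+GM, Bub1b (log2 fold change 1.27), Anln (0.7), Kif20a (1.18), Ccnb2 (1.28), Tk1 (1.74), Ccna2 (1.27), Aurka (1.06) and Cenpf (1.06) were among the 10 that rose, and Pcna (-0.9), Tyms (-0.52) and Mcm4 (-0.45) were the 3 that fell.

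These counts rested on few libraries. Without the library numbered 2 at 24 h of the same treatment, the members called numbered 3 in CTRL, 1 in GM, 5 in PIO and 5 in PIO+GM. Those called higher were 2 in CTRL (4.8%, against 11.6% of all genes), 1 in GM (2.4%, against 9.05%), 4 in PIO (9.5%, against 8.77%) and 3 in PIO+GM (7.1%, against 13.8%), so that the share of members lay near or below that of all genes in each treatment. Libraries at 6 h moved them as well, to 5 and 3 without CTRL libraries 1 and 2, to 2 each without GM libraries 1 and 2, to 10 and 11 without PIO libraries 1 and 2 and to 5 and 8 without PIO+GM libraries 2 and 3, and CTRL library 1 at 24 h moved that of CTRL to 5. Called higher among these were 9.5% and 7.1% of the members in CTRL (against 11.9% and 8.06% of all genes), 4.8% in both GM fits (against 8.68% and 6.51%), 21.4% and 23.8% in PIO (against 9.49% and 7.48%), 9.5% and 16.7% in PIO+GM (against 10.3% and 16.2%) and 11.9% in CTRL without library 1 at 24 h (against 10.8%). Outside PIO, these shares lay near or below those of all genes. Other left-out libraries gave shares above it, with 28.6% in GM without library 1 at 24 h (against 8.84%), 21.4% in CTRL without library 3 at 24 h (against 10.3%) or library 3 at 6 h (against 13.6%), and 26.2% in PIO+GM without library 3 at 24 h (against 14.2%), so that the order of members and all genes in these 3 treatments changed with the library left out. Whichever library was left out, Anln and Rrm1 stayed called in CTRL, Anln in GM, Anln, Bub1b, Ccnb1, Tk1 and Pcna in PIO, and Anln, Bub1b, Kif20a and Pcna in PIO+GM. Averaged over treatments, 28 of the 30 calls stood in all 24 such fits, and Mcm5 and Mcm4 were the exceptions. The summed Schwann cell markers were at 483 to 1067 CPM at 24 h (median 677.5) and 474 to 2825 CPM at 6 h (median 1394), and the red blood cell markers at 39.6 to 129 CPM and 91.8 to 340 CPM. The macrophage markers were higher at 24 h, at 74.7 to 234 CPM (median 123) against 55.1 to 139 CPM (median 73.8) at 6 h, and at 74.7 to 126 CPM (median 117) in the 8 libraries at 24 h not numbered 2. The supporting cell markers were at 3689 to 11159 CPM (median 10050) at 24 h, with a median of 10380 in the 8 libraries not numbered 2, and at 4409 to 9860 CPM (median 7104) at 6 h. The receptor gene sum went the other way, with a median of 74.9 CPM at 24 h and 122 CPM at 6 h. The fibroblast markers were at 3245 to 7151 CPM (median 4544) and 2834 to 5507 CPM (median 3976), the endothelial markers at 120 to 377 CPM (median 187) and 139 to 415 CPM (median 219). For these genes and cell types, their part in the change of the members was not tested.

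In the edgeR fit of group means, neither drug changed a member past the threshold. In all 10 comparisons between treatments, this fit called 0 of the 42 members. For GM against CTRL, 0% of all genes were called at 6 h and 0.0123% at 24 h. For PIO against CTRL these shares were 0.337% and 0.153%, for PIO+GM against GM 1.32% and 0.11%, for PIO+GM against CTRL 2.64% and 0.478%, and for PIO+GM against PIO 0% and 0.0735%. With so few genes called, 0 of 42 lies near the background. At an unadjusted p under 0.05, 0 to 3 members passed in each comparison, beside 1.49% to 25% of all genes. In PIO+GM at 6 h, 2 members and 25% of all genes passed against GM, and 3 members and 23.6% against CTRL. The median of the members was between -0.09 and 0.2 on the log2 scale, with a median SE of 0.34 to 0.36 for single members. DESeq2 called 2 members in PIO+GM against GM at 6 h (Pcna and Tyms), 1 in PIO+GM against CTRL at 6 h (Pcna), 1 in GM against CTRL at 24 h (Cdc6), 1 in PIO+GM against CTRL at 24 h (Cdc6) and 0 in the other 6 comparisons. DESeq2 called 4.53% of all genes higher in PIO+GM against GM and 4.57% in PIO+GM against CTRL at 6 h, so that 2 and 1 of 42 lie near its background there, and at 24 h 0.049% in GM and 0.509% in PIO+GM against CTRL. With library number as a block, edgeR called Pcna higher at 6 h in PIO against CTRL, PIO+GM against GM and PIO+GM against CTRL. Of all genes, 1.05%, 5.77% and 4.8% were called higher there. In the last of these, Uhrf1 was called lower, beside 4.66% of all genes.

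**Figure D5:**
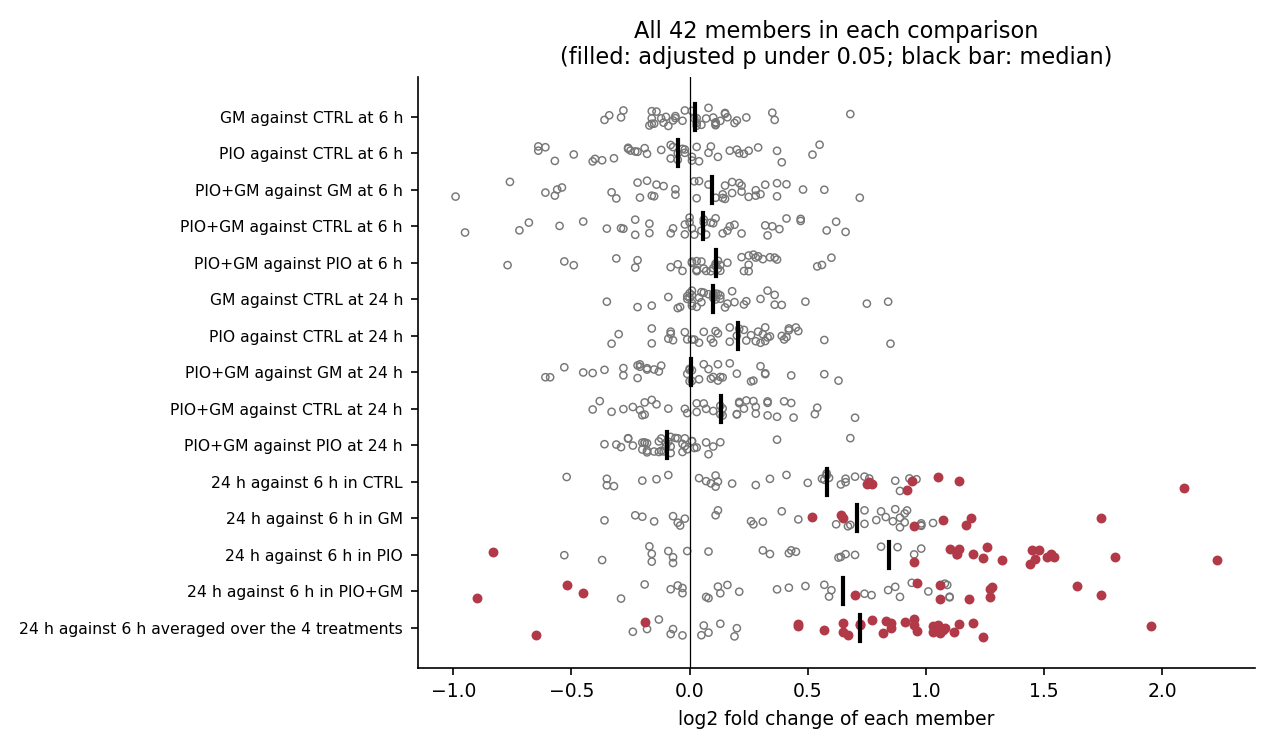
log2 fold change (x axis) of the 42 members in the 10 comparisons between treatments and the 5 between times (y axis), filled for an adjusted p under 0.05 and with a black bar at the median. No point is filled between treatments, where the medians lie between -0.09 and 0.2, and the medians between times lie between 0.58 and 0.85.

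In the edgeR fit of group means, Pcna came nearest to the threshold with pioglitazone at 6 h. It was at 27.9, 41 and 29.4 CPM in CTRL, at 28.3, 34.6 and 31.6 CPM in GM, at 41.8, 64.6 and 38.1 CPM in PIO and at 41.3, 63.8 and 50.4 CPM in PIO+GM. The PIO+GM libraries lay above all CTRL and all GM libraries, and the PIO libraries overlapped with CTRL through CTRL library 2. The library numbered 2 was the highest of its group in all 4 treatments, and PIO lay above CTRL, and PIO+GM above GM and above CTRL, within each number. The log2 fold change was 0.55 ± 0.2 for PIO against CTRL (adjusted p = 0.197, edgeR), 0.72 ± 0.2 for PIO+GM against GM (adjusted p = 0.064, edgeR) and 0.66 ± 0.2 for PIO+GM against CTRL (adjusted p = 0.0694, edgeR). Without PIO+GM library 1 at 6 h, the last 2 reached adjusted p-values of 0.0104 and 0.0135 (edgeR). With library number as a block, the 3 comparisons, in the order given, had adjusted p-values of 0.0476, 0.00964 and 0.0121 (edgeR). The labels do not say what libraries of 1 number share. PIO+GM against GM and against CTRL share the PIO+GM libraries, and PIO against CTRL and PIO+GM against CTRL share those of CTRL. At 24 h the 4 group means lay between 22.9 ± 2.99 CPM in CTRL and 27.8 ± 2.47 CPM in PIO+GM (SD, n = 3).

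Other S phase members with the smallest p-values at 6 h included Mcm4, at 31.8 ± 2.42 CPM in PIO and 24.3 ± 1.25 CPM in CTRL (SD, n = 3), with a log2 fold change of 0.39 ± 0.15 (adjusted p = 0.238, edgeR), and Ccne1, at 5.18, 4.87 and 7.02 CPM in PIO and 4.1, 4.59 and 3.27 CPM in CTRL, with 0.52 ± 0.23 (adjusted p = 0.289, edgeR). Tyms was at 13.1 ± 1.37 CPM in PIO+GM and 8.83 ± 0.593 CPM in GM, with 0.57 ± 0.2 (adjusted p = 0.105, edgeR), and Cdt1 had -0.76 ± 0.4 in the same comparison (adjusted p = 0.245, edgeR). With PIO against CTRL at 6 h, 12 of the 18 S phase members and 5 of the 24 mitotic members had a log2 fold change above 0, with medians of 0.15 and -0.15, beside 0 for all genes. With PIO+GM against GM these counts were 12 of 18 and 13 of 24, with medians of 0.19 and 0.03. At 24 h, 8 of 18 S phase and 24 of 24 mitotic members were above 0 for PIO against CTRL, with medians of -0.02 and 0.3. For PIO+GM against GM these counts were 5 of 18 and 17 of 24, with medians of -0.19 and 0.08. These signs rested on few libraries. With 1 library left out, the median of all members at 24 h ran from -0.09 to 0.57 for PIO against CTRL. For PIO+GM against GM it ran from -0.24 to 0.4. None of these members was called at either time in the edgeR fit of group means, and the difference of the counts between times was not tested.

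Cdc6 was the member nearest to the threshold with gentamicin. At 24 h it was at 3.34, 4.89 and 3.84 CPM in CTRL, at 5.95, 8.11 and 7.61 CPM in GM, at 4.24, 4.03 and 4.01 CPM in PIO and at 7.02, 5.3 and 7.44 CPM in PIO+GM. Every library with gentamicin lay above every library without it. The log2 fold change was 0.84 ± 0.18 for GM against CTRL (unadjusted p = 0.000204, adjusted p = 0.191, edgeR), 0.7 ± 0.19 for PIO+GM against CTRL (adjusted p = 0.101, edgeR) and 0.68 ± 0.18 for PIO+GM against PIO (adjusted p = 0.336, edgeR). At 6 h, it was at 3.46, 4.32 and 3.99 CPM in CTRL, at 4.79, 5.39 and 4.97 CPM in GM, at 4.12, 3.81 and 3.69 CPM in PIO and at 5.08, 6.5 and 6.08 CPM in PIO+GM, again with no overlap between libraries with and without gentamicin. The log2 fold changes at 6 h were 0.36 ± 0.19 for GM against CTRL (adjusted p = 1, edgeR), 0.58 ± 0.19 for PIO+GM against CTRL (adjusted p = 0.0873, edgeR) and 0.6 ± 0.19 for PIO+GM against PIO (adjusted p = 0.998, edgeR). Cdc6 had 36 to 120 counts per library, and DESeq2 put it past the threshold in 2 of these 6 comparisons, both at 24 h.

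Apart from Pcna, Tyms and Cdc6 as given above, the members with the smallest p-values in each comparison were called by neither edgeR nor DESeq2. For GM against CTRL at 6 h, the smallest were those of Cdc6, Gins2 with a log2 fold change of 0.35 ± 0.25 and Tk1 with 0.68 ± 0.57, and at 24 h Cdc6, Plk1 with 0.75 ± 0.46 and Aurka with 0.49 ± 0.34. For PIO against CTRL at 24 h, they were Ccne1 with 0.45 ± 0.23, Plk1 with 0.85 ± 0.46 and Birc5 with 0.57 ± 0.32. For PIO+GM against GM at 24 h, they were Ccne1 with 0.57 ± 0.23, Mcm6 with -0.36 ± 0.15 and Mcm7 with -0.28 ± 0.16. For PIO+GM against CTRL at 24 h, Ccne1 had 0.53 ± 0.23 and E2f1 0.43 ± 0.29. For PIO+GM against PIO, Anln had 0.25 ± 0.17 and Aurka -0.53 ± 0.37 at 6 h, and Tyms had -0.24 ± 0.2 and Anln -0.2 ± 0.16 at 24 h.

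Whether the effect of a drug differed between times, or that of pioglitazone with and without gentamicin, was tested as an interaction. edgeR called 0 of the 42 members and 0% of all genes in each of the 5 tests, and DESeq2 called 0 members in each. At an unadjusted p under 0.05, 2 members passed for PIO against CTRL between times (4.38% of all genes) and 2 for PIO+GM against GM between times (4.06%). In the other 3 tests 0 passed. The 2 of 42 in each lie near the shares of all genes. The members that passed were Mcm4 with -0.47 ± 0.21 and Birc5 with 0.98 ± 0.45 (log2 difference, 24 h minus 6 h) in PIO against CTRL, and Tyms with -0.79 ± 0.28 and Mcm6 with -0.51 ± 0.21 in PIO+GM against GM. More members were called over time in PIO than in CTRL (18 against 8). For single members, the interaction of PIO against CTRL between times tests this difference, and its smallest adjusted p was 0.898 (edgeR). The difference of the 2 counts itself was not tested.

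The wider pathway was described by 5 lists of other cell cycle genes. Averaged over the treatments, 38 of 47 other G2 and M phase genes rose from 6 to 24 h and 1 fell, with a median log2 fold change of 0.74. When the libraries numbered 2 at 24 h were left out, 28 rose and 1 fell, with a median of 0.47. Cdca3 rose by 1.49 ± 0.2, the condensin subunit Ncapd2 by 0.96 ± 0.12 and Tacc3, a spindle protein, by 0.74 ± 0.11. Of 34 other S phase genes, 15 rose and 7 fell, with a median of 0.25, and without those libraries 9 rose and 6 fell, with a median of 0.13. Pola1, the catalytic subunit of DNA polymerase α, fell by 0.66 ± 0.07 (log2), whereas the clamp loader subunit Rfc5 rose by 0.78 ± 0.11 and the ligase Lig1 by 0.7 ± 0.1. These and the following lists stand beside 31.9% higher and 30.7% lower of all genes with all libraries, and 27.5% and 28.5% without those numbered 2 at 24 h. Of 10 pocket proteins and other E2F factors, 4 rose and 4 fell (4 and 5 without those libraries), near the shares of all genes, among them E2f6 (-0.53 ± 0.06), Rbl2 (0.34 ± 0.05) and E2f2 (0.71 ± 0.11).

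Of the 6 tested CDK inhibitors, 4 rose and 1 fell over time, as many as without the libraries numbered 2 at 24 h, and of the 6 G1 cyclins and their kinases, 2 rose and 3 fell (1 and 3 without those libraries). For the G1 list, the 2 of 6 that rose lie near the share of all genes. Cdkn1a, which encodes the inhibitor p21, went from 130 ± 38.4 CPM at 6 h to 53.9 ± 10.9 CPM at 24 h in CTRL (SD, n = 3), and fell by 1.02 ± 0.14 (log2, SE) averaged over treatments. Cdkn1b, for p27, the inhibitor known to hold supporting cells out of the cell cycle, rose by 0.29 ± 0.08, Cdkn1c, for p57, by 1.84 ± 0.3, and Cdkn2c by 1.34 ± 0.18. Ccnd1, for cyclin D1, fell by 0.73 ± 0.16 and Cdk6 by 0.79 ± 0.19 (log2), while Ccnd3 rose by 0.31 ± 0.1. Each of these 7 genes was also called in the same direction without the libraries numbered 2 at 24 h.

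In the edgeR fit of group means, some genes of these lists passed the threshold with the drugs, where no member did. They stand beside 1.32% of all genes called in PIO+GM against GM and 2.64% in PIO+GM against CTRL at 6 h. Whether the lists and the members differ was not tested. At 6 h, Ccnd1 was at 122 ± 11.2 CPM in CTRL, 127 ± 18.3 CPM in GM, 54.1 ± 14.8 CPM in PIO and 54 ± 17.6 CPM in PIO+GM (SD, n = 3). Its log2 fold change was -1.18 ± 0.31 for PIO+GM against CTRL (adjusted p = 0.0491, edgeR), -1.24 ± 0.31 for PIO+GM against GM (adjusted p = 0.0531, edgeR) and -1.17 ± 0.31 for PIO against CTRL (adjusted p = 0.0959, edgeR). Its kinase partner Cdk4 fell in PIO+GM, by 0.65 ± 0.15 against GM and by 0.57 ± 0.15 against CTRL (log2), and the primase subunit Prim1 rose by 0.76 ± 0.17 and 0.7 ± 0.17. Against CTRL, Prim2 (0.64 ± 0.17) and Rbl2 (0.53 ± 0.11) rose too. Cdkn1a (-0.63 ± 0.28), Cdkn1b (-0.1 ± 0.16) and Cdkn1c (-1.14 ± 0.59) did not pass the test in PIO+GM against CTRL at 6 h. With GM against CTRL, Ccnd1 and the 3 inhibitors lay between -0.38 and 0.24 on the log2 scale at both times, with adjusted p-values of 1 (edgeR).

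Reads of some members can overlap with those of other genes. In the GENCODE annotation, 12 of the 42 members share exon bases with a gene of the opposite strand, among them Gins2 with Gse1 (2758 bases), Kif20a with Cdc23 (1271 bases), Ube2c with Tnnc2 (592 bases), Ccna2 with Exosc9 (510 bases) and Tk1 with Afmid (83 bases). The use of strand in the counting is not given in the sources used here, so reads in these bases cannot be told apart. Anln, Bub1b and Pcna share none.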

How the data were processed

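The authors mapped reads with STAR and counted those starting within RefSeq exons with QuasR. The deposited values are raw counts per Entrez gene with the gene's length, and the submitters' processing notes name mm10. Of 24454 identifiers, 24381 matched a symbol.

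A model with 8 group means was fitted to 24 libraries in R 4.3.3 with edgeR 4.0.16 (TMM, filterByExpr, quasi-likelihood F-test), with Benjamini-Hochberg adjustment over 16317 genes per comparison, a threshold of 0.05 and standard errors from the F statistic. CPM were scaled by TMM, and log2 CPM had a prior count of 2. At these depths, 3 counts equal 0.193 to 0.416 CPM (counting error only). Replicate libraries differed beyond sampling noise (chi-square per degree of freedom of at least 10.2). The procedure was tested on simulated data.

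The members and lists were chosen with earlier results of these data known. Named members are up to 10 per comparison past the threshold by smallest p (3 where none passed), the most abundant of each role list, up to 3 genes called per pathway list, and Ccnd1, Cdkn1a, Cdkn1b and Cdkn1c. Alternatives were DESeq2 1.42.0, a replicate block, no TMM factors, 2 other filters, 1 time point at a time, GC trend removal, a prior count of 0.5 and leaving out each library. Leaving out the libraries numbered 2 at 24 h, and a covariate of summed olfactory and vomeronasal receptor CPM, were chosen after seeing the data.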

Additional observations from a re-analysis of the deposited data

How the results depend on the processing

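Of 1664 values of named members under the alternatives, 1552 kept their direction and their side of the threshold, 97 lost the call, 15 gained it and 0 changed sign. No members were called between treatments in most fits. The exceptions were 1 in PIO against CTRL at 6 h, 1 in PIO+GM against GM at 6 h and 2 in PIO+GM against CTRL at 6 h with the replicate block, 2, 1, 1 and 1 with DESeq2 in PIO+GM against GM and against CTRL at 6 h and in GM and PIO+GM against CTRL at 24 h, and 1 in PIO+GM against CTRL at 24 h with the GC trend removed and the replicate block. Leaving out 1 library gave 0 to 2 in PIO+GM against GM at 6 h, 0 to 3 in PIO+GM against CTRL at 6 h and 0 in the other 8 comparisons and 5 interactions.

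Over time, leaving out 1 library gave 3 to 9 members in CTRL, 1 to 12 in GM, 5 to 19 in PIO, 5 to 13 in PIO+GM and 28 to 32 averaged over treatments. Without a filter on low counts, 5 were called in CTRL. Without the 4 libraries numbered 2 at 24 h, 4 were called in CTRL (of all genes, 10.5% were higher and 10.1% lower), 3 in GM (8.5% and 7.7%), 10 in PIO (7.64% and 9.52%) and 9 in PIO+GM (12.3% and 12.4%). With the receptor gene covariate, 3 were higher and 2 lower in PIO, 5 in all (7.13% and 8%). Averaged over treatments, this covariate left 17 members higher and 4 lower, with a median of 0.44 (27.6% and 26.1%). For these counts the cause was not tested, beyond the fewer libraries in the fits that leave some out.

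The labels do not say what libraries of 1 number share. Deviations from the group means correlated by more than 0.1 in 9 of 18 same-numbered pairs at 6 h (mean 0.113, against -0.0547 for unlike numbers) and in 15 of 18 at 24 h (mean 0.38, against -0.182). At 24 h this held for all 6 pairs of number 2 (0.471 to 0.723), all 6 of number 3 (0.199 to 0.595) and 3 of 6 of number 1, so that not every pair met the mark at either time. With the replicate block, 9 members were higher and 2 lower over time in CTRL (16% and 14% of all genes), 10 higher in GM (13.6%), 20 and 2 in PIO (14.4% and 16.4%), 12 and 3 in PIO+GM (18.4% and 17.8%) and 28 and 3 averaged (32.1% and 31.2%). At 6 h the block put Pcna past the threshold in PIO against CTRL (log2 fold change 0.54 ± 0.13, adjusted p = 0.0476, edgeR; 1.05% of all genes called higher), in PIO+GM against GM (0.7 ± 0.14, adjusted p = 0.00964, edgeR; 5.77%) and in PIO+GM against CTRL (0.66 ± 0.14, adjusted p = 0.0121, edgeR; 4.8%), where Uhrf1 was lower (-0.69 ± 0.21, adjusted p = 0.0493, edgeR; 4.66% lower). By deviation from the group mean, 8 of 12 libraries at 6 h and 11 of 12 at 24 h correlated best with their own number, a hint from the data and not from the design. The prior count of 0.5 moved the mean level of the members from 3.07 to 3.04 on the log2 CPM scale. Members near 1 CPM, such as Tk1 and Cdc25c, are limited by depth.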
